A study of Mus musculus with 70 samples.

Results

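Lung metastases of the fourth in vivo passage (P4) were compared by the route through which the tumour cells had reached the lung. The samples were taken by their titles, as the P4 samples of the tail group (T-LM, replicates 1, 2, 3 and 4) and of the lung group (K-LM, replicates 1, 3 and 5), which made 7 of the 65 RNA samples of the series. All were GFP-RENCA cells, a mouse renal adenocarcinoma line carrying green fluorescent protein, grown in wild-type female BALB/c mice that were 6 weeks old at injection per the study's methods. T-LM cells had been put into the caudal vein, with no tumour in the kidney, and recovered from the lungs. K-LM cells had been put under the capsule of the left kidney, recovered from the lung metastases that followed, and returned to the kidney for the next passage. KPT P4 (3 samples), recovered from the kidney tumours, entered the fit for its estimate of the spread. The hosts keep their own immune system. The methods describe digestion of the tissue and culture for about 2 weeks until no GFP-negative cell was detected, while the labels describe homogenised samples. The labels do not say which mouse gave which replicate, so the p-values measure the spread between these samples.

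A cell injected into the tail vein is carried straight to the capillaries of the lung and has to survive, stop and grow there. A cell placed in the kidney must first grow, leave the primary tumour and enter the blood before it meets the same capillary bed. Lung metastases hold tumour cells together with host cells, among them tissue macrophages, which clear debris through C1q and scavenger receptors and can metabolise arginine.

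Total RNA was measured on single-colour Agilent mouse arrays, 1 array per P4 sample. A level is the log2 processed signal of a probe minus the 75th percentile of the array, taken over 11287 probes well above background on all 70 arrays, so that 0 is as bright as that percentile and lower values are dimmer. Between 31.1% and 36.1% of probes were well above background in T-LM, 31.6% to 35.9% in K-LM and 34.3% to 35.8% in KPT. Correlations between samples over the tested probes were 0.974 to 0.988 for the 6 pairs within T-LM, 0.914 to 0.963 for the 3 pairs within K-LM and 0.923 to 0.971 for the 12 pairs across routes. K-LM replicate 1 stood apart. Of 20660 probes, 631 lay more than 2 log2 units below both other K-LM samples there, against 108 in replicate 3 and 14 in replicate 5. More than 2 log2 units above both others lay 120 probes in replicate 1, 9 in replicate 3 and 198 in replicate 5. The lines carried the keratins of a simple epithelium, with Krt8 at 1.48 to 1.66 in T-LM and 1.20 to 1.38 in K-LM and Krt18 at 3.39 to 3.78 and 3.28 to 3.53. Pax8, a transcription factor of the renal epithelium, was well above background in all 7 samples. Of 11 markers of renal carcinoma epithelium 6 were tested, and Epcam, Cdh1, Pax2 and Lhx1 were among those not above background in enough samples. The summed level of the list was 3.78 to 4.10 in T-LM and 3.63 to 3.87 in K-LM.

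Arg1 and Ear2 passed the test between the routes at P4, and both were higher in the tail-vein metastases. Of 20719 probes tested with limma, 2 (0.00965%) passed an adjusted p of 0.01 or less with a higher level in T-LM and 0 (0%) with a higher level in K-LM, and these 2 (0.00965%) were all that passed in either direction. Differences beyond 2 log2 units were found for 262 probes, 161 of them higher in T-LM and 101 higher in K-LM. At an unadjusted p under 0.05 there were 2966 probes, 1447 (6.98%) higher in T-LM and 1519 (7.33%) higher in K-LM. An adjusted p of 0.05 or less was reached by 37 (0.179%) higher in T-LM and 11 (0.0531%) higher in K-LM. The median difference over all tested probes was -0.04, with quartiles of -0.33 and 0.25. The share of the summed squared distance between samples that lay between routes was 28.7% (exact permutation test over 35 assignments, 1-sided, p = 0.0286, the smallest this design can give). In bulk RNA, fewer cells of a type and less RNA per cell cannot be told apart, which holds for every gene below.

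Arg1, the enzyme that splits arginine into ornithine and urea in liver and in some macrophages, had levels of -1.77, -0.89, -0.48 and -1.98 in T-LM replicates 1 to 4. It was at -8.43, -8.93 and -8.65 in K-LM replicates 1, 3 and 5, where it was not well above background on any array. The groups were far apart, and every T-LM sample was also above the KPT samples, which lay at -5.50, -6.94 and -8.70. The fitted difference was 7.39 ± 0.64 (SE; limma, adjusted p = 0.00352), and the level was at least 40.9-fold higher in T-LM when K-LM was set to the lowest signal well above background on each array. Ear2, a ribonuclease of eosinophils and of some macrophages, lay at -5.58, -5.55, -5.42 and -5.46 in T-LM. Its K-LM levels of -8.58, -9.21 and -8.91 and its KPT levels of -9.04, -9.27 and -9.07 were all below background. The 4 T-LM samples lay close together, and the difference was 3.40 ± 0.19 (limma, adjusted p = 0.000102), at least 2.2-fold. With 1 sample left out Ear2 passed each time, while the adjusted p of Arg1 rose to between 0.0107 and 0.0279 without T-LM replicate 2, 3 or 4 or K-LM replicate 3 or 5, with differences of 7.13 to 7.63. With dim signals raised to a floor, the Ear2 difference was 1.13 (adjusted p = 0.0424). Ear2 has near-identical relatives in the mouse genome, so its probe may also read those.

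The next genes in order of p were higher in T-LM without passing the threshold, and none of the 7 samples crossed over between the groups. Rgs1, a brake on G-protein signalling in leukocytes, was at -4.36, -3.54, -3.20 and -3.27 in T-LM, against -7.91, -9.17 and -8.88 in K-LM, where it was below background (difference 5.06 ± 0.54, adjusted p = 0.0111, at least 8.24-fold). Thrsp, a regulator of fatty acid synthesis, was at -4.86, -4.03, -5.15 and -4.90 in T-LM, against -7.85, -8.26 and -8.90 in K-LM (3.60 ± 0.37, adjusted p = 0.0111, at least 3.74-fold). Both had adjusted p-values just outside the threshold. Genes used by blood cells followed, with Arhgap25, a Rac-inactivating protein, at least 2.53-fold higher (adjusted p = 0.0272), Lpxn, an adhesion adaptor, at least 2.29-fold (adjusted p = 0.0272) and Tnfaip8l2, an inhibitor of innate immune signalling, at least 1.81-fold (adjusted p = 0.0377). Rnase2a, of the same ribonuclease family as Ear2, differed by 1.56 (adjusted p = 0.0328), and Pla2g3, a secreted phospholipase, was at least 1.49-fold higher (adjusted p = 0.0377). The uncharacterised C130050O18Rik and 1700016C15Rik were at least 1.35-fold (adjusted p = 0.0325) and 2.57-fold (adjusted p = 0.0328) higher. Aqp5, a water channel of lung alveoli and glands, was bright enough to be measured on both sides, at -2.24, -2.05, -3.27 and -2.61 in T-LM, against -4.52, -4.84 and -4.65 in K-LM (2.13 ± 0.31, adjusted p = 0.0377). A second Aqp5 probe, below background in K-LM, was at least 3.13-fold higher (adjusted p = 0.0328). Of the 12 genes, Rnase2a and Aqp5 alone were well above background on a K-LM array, so for the other 10 the fitted difference is no measure of size and the bound is given. KPT means of Rnase2a, Pla2g3 and C130050O18Rik were -4.68, -6.18 and -6.23, near the T-LM means of -4.48, -6.06 and -6.21. Thrsp had a KPT mean of -8.36, near the K-LM mean of -8.34. For the other genes of this paragraph the KPT mean lay between those of T-LM and K-LM.

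**Figure D1:**
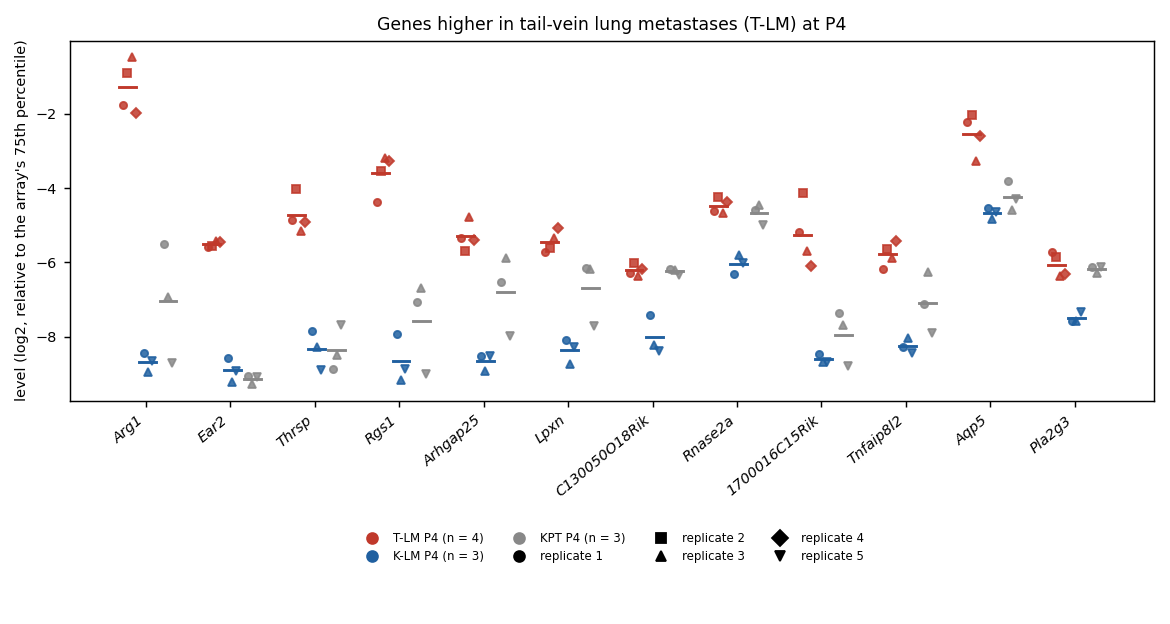
Level of the 12 genes named as higher in T-LM P4, on the vertical axis in log2 units relative to the 75th percentile of the array, with 1 point per sample (4 T-LM, 3 K-LM and 3 KPT) and a bar at each group mean. Arg1 and Ear2 passed the test, and for all 12 genes the 4 T-LM points lie above the 3 K-LM points. KPT replicates 1 and 3 lie between the groups for Arg1 and Rgs1, and the KPT points lie near T-LM for Rnase2a, Pla2g3 and C130050O18Rik.

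Markers of macrophages and monocytes were the list with the largest median difference, 2.79 against -0.04 over all probes, yet 0 of its members passed the test. Of 18 markers 16 were tested, and Marco and Siglecf, which mark alveolar macrophages, were below background. The 4 T-LM samples lay above the 3 K-LM samples for 11 of the 16, against 6.94% of all probes, and for none the other way, against 6.33% of all probes. Of the 11, 8 had fewer than 2 K-LM arrays above background and so entered the test through T-LM, which makes this count and the median a description alone. At an unadjusted p under 0.05 there were 10, all higher in T-LM (6.98% of all probes were higher in T-LM and 7.33% in K-LM). For the same reason this count is a description alone. Tyrobp, the adaptor of myeloid receptors, was at -1.86, -1.17, -0.95 and -1.06 in T-LM, against -5.11, -8.45 and -7.75 in K-LM (5.85 ± 1.50, adjusted p = 0.14). The complement starter C1qa was at -4.61, -4.36, -4.09 and -4.22 in T-LM, against -8.54, -9.07 and -8.81 in K-LM (4.48 ± 0.87, adjusted p = 0.0787, at least 4.98-fold). Its partner C1qc was at least 3.9-fold higher (adjusted p = 0.0897) and the mannose receptor Mrc1 at least 5.04-fold (adjusted p = 0.0677), both below background in K-LM. Ctss, a lysosomal protease, differed by 4.93 (adjusted p = 0.0981) and Lyz2, lysozyme, by 3.91 (adjusted p = 0.101). Not every marker moved this way, since the lysosomal glycoprotein gene Cd68 differed by -0.34 and the integrin gene Itgam by -0.58, both with overlapping groups.

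The KPT samples, which share the fit, were uneven for the same markers. The mean macrophage marker level was -3.85, -3.52, -3.25 and -3.52 in T-LM replicates 1 to 4, while the K-LM samples had -5.15, -6.57 and -5.99. It was -3.81, -3.58 and -6.54 in KPT replicates 1, 3 and 5, so 2 KPT samples were near the T-LM level and 1 was near the K-LM level. Of the 18 markers 15 to 16 were well above background in T-LM, 11, 6 and 7 in the K-LM samples and 16, 16 and 7 in the KPT samples. The summed level of the list, which its brightest member Cd68 dominates, was 2.20 to 2.77 in T-LM, 1.55 to 2.10 in K-LM and 1.64 to 2.90 in KPT. Fitted on the 7 lung arrays without KPT, 42 probes (0.203%) passed the threshold with a higher level in T-LM and 0 (0%) with a higher level in K-LM. They named 40 genes, among them Arg1, Ear2, Rgs1, Thrsp, Mmp12, Pf4 and 4 of the 16 macrophage markers (C1qa, C1qc, Mrc1 and Laptm5). These 4 markers were below background on every K-LM array and entered the test through T-LM, so their count is a description alone. The same held for Arg1, Ear2, Rgs1, Thrsp and Mmp12. Fcgr3 and Fcgr2b, receptors for antibodies, were among the other genes of that fit, which were named after their values were seen, Fcgr3 at least 9.19-fold higher (adjusted p = 0.0043) and Fcgr2b with a difference of 3.48 (adjusted p = 0.00638). So were Msr1, a scavenger receptor, at least 3.71-fold higher (adjusted p = 0.00125) and Cd36, another, at least 2.16-fold (adjusted p = 0.00592). Fcgr3, Msr1 and Cd36 too were below background on every K-LM array and entered through T-LM. Using all arrays of the 8 slides scanned first, 210 probes (1.01%) were higher in T-LM and 81 (0.391%) in K-LM, with 5 of the 16 macrophage markers called. The probes were kept by the same filter on the 7 lung arrays, so that count is a description too. The part of macrophage RNA in the other T-LM differences was not tested.

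The chemokine list held the largest difference of any gene list. Pf4, platelet factor 4, which megakaryocytes and some macrophages make, was among the brighter genes in T-LM at 0.70, 0.84, 1.87 and 1.30. In K-LM it was at -6.39, -8.15 and -6.23, and in KPT at -0.37, -0.68 and -8.94. The difference of 8.10 ± 1.70 was the largest of the chemokine list, and it did not pass the test (adjusted p = 0.0924) with KPT in the fit. Of the 23 chemokines and myeloid growth factors tested, 6 were higher in all T-LM samples and 3 in all K-LM samples (6.94% and 6.33% of all probes), with a list median of 0.22. Of the 6, 3 had fewer than 2 K-LM arrays above background. The myeloid chemokines Ccl6 and Ccl9 differed by 5.89 (adjusted p = 0.193) and 4.97 (adjusted p = 0.173). In the other direction Cxcl16, a chemokine tethered to the cell surface, differed by -1.16 (adjusted p = 0.0685) and Ccl5, an attractant of T cells, by -1.70 (adjusted p = 0.203). Mmp12, macrophage elastase, was at -4.12, -3.49, -2.82 and -3.39 in T-LM, against -7.95, -8.96 and -8.62 in K-LM (5.06 ± 0.94, adjusted p = 0.0685, at least 9.07-fold). It was the largest of the 22 matrix proteases and inhibitors tested, of which 3 were higher in all T-LM samples and 0 in all K-LM samples (6.94% and 6.33% of all probes), with a median of -0.34. Of the 3, 1, Mmp12 itself, had fewer than 2 K-LM arrays above background and so entered the test through T-LM. Tbxas1, thromboxane synthase, was at least 3.17-fold higher in T-LM (adjusted p = 0.061), and H2-Eb1, a class II antigen-presenting chain, at least 2.14-fold (adjusted p = 0.225), both below background on every K-LM array. The antigen presentation list as a whole had a median of 0.05 over 15 genes.

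Of 17 complement genes tested, 7 were higher in all T-LM samples (6.94% of all probes were), 1 was higher in all K-LM samples (6.33% of all probes) and 0 passed the test, with a median of 0.73. Of the 7, 4 had fewer than 2 K-LM arrays above background and so entered the test through T-LM. The 3 C1q chains and Cfp, properdin, which stabilises the complement convertase, made up 4 of the 7, and Cfp differed by 2.74 (adjusted p = 0.0867). C3, the central component of the cascade, went the other way, at -0.02, -0.22, -0.44 and -0.45 in T-LM, against 1.41, 1.11 and 1.22 in K-LM. The difference was -1.53 ± 0.24 (adjusted p = 0.0453), and a second C3 probe gave -1.46 (adjusted p = 0.0447). The KPT samples were at -0.77, -0.86 and 0.01, below every K-LM sample. Without K-LM replicate 1 the median of the complement list was -0.24.

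Few lung epithelium markers could be tested. Of 12 markers 5 were, and for these 5 the T-LM samples lay above the K-LM samples, against 6.94% of all probes. Besides Aqp5 these were Scgb1a1, of club cells, with a difference of 1.18 (adjusted p = 0.162), and Napsa, an aspartic protease, with 1.01 (adjusted p = 0.235). Ager, of alveolar type I cells (at least 1.26-fold, adjusted p = 0.163), and Sftpd, surfactant protein D (adjusted p = 0.101), were above background on 2 T-LM arrays and on no K-LM array, so they entered the test through T-LM. The list median was 1.55 and 0 of the 5 passed. Other probes of Sftpd and Hopx, also below background in K-LM, were at least 2.3-fold (adjusted p = 0.0132) and 1.09-fold (adjusted p = 0.0111) higher in T-LM. The defining surfactant genes Sftpa1, Sftpb and Sftpc, with Scgb3a2, Nkx2-1 and Foxj1, were not above background in enough samples to be tested. The summed level was -1.57 to -0.68 in T-LM, -2.82 to -2.32 in K-LM and -1.34 to 0.01 in the unpassaged P0 line. In P0 the Aqp5 level was -1.86 and -0.13. The part of lung epithelial RNA in the result was not tested.

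No gene passed the test with a higher level in K-LM. The 12 of lowest p had adjusted p-values of 0.0377 to 0.0651, and for all 12 the K-LM samples lay above the T-LM samples. Igf2r, the receptor that carries IGF2 and mannose 6-phosphate proteins to lysosomes, was at -2.68, -3.07, -2.95 and -3.11 in T-LM, against -0.68, -1.61 and -1.35 in K-LM (-1.74 ± 0.27, adjusted p = 0.0439). Igf1r, the signalling receptor for IGF1, was at -3.46, -3.78, -3.56 and -4.14 in T-LM, against -2.25, -2.71 and -2.25 in K-LM (-1.34 ± 0.22, adjusted p = 0.047). They were the members of lowest p among 26 growth factor ligands and receptors, of which 2 were higher in all T-LM samples and 4 in all K-LM samples (6.94% and 6.33% of all probes). The 2 higher in T-LM had fewer than 2 K-LM arrays above background and so entered the test through T-LM. Stmn4, a protein that destabilises microtubules, differed by -2.48 (adjusted p = 0.0453) and Tstd1, a sulfurtransferase, by -1.77 (adjusted p = 0.0377). Peli1, a ubiquitin ligase of innate immune signalling, differed by -1.31 (adjusted p = 0.0489), Kctd13, an adaptor of a ubiquitin ligase, by -1.19 (adjusted p = 0.047) and Ube2h, a ubiquitin-conjugating enzyme, by -1.48 (adjusted p = 0.0651). Gaa, which breaks down glycogen in lysosomes, differed by -1.94 (adjusted p = 0.0645), Myom2, of the muscle M-band, by -2.08 (adjusted p = 0.064) and Naa80, which acetylates actin, by -1.25 (adjusted p = 0.0651). Dync1h1, the heavy chain of cytoplasmic dynein and one of the longest mRNAs in the genome, differed by -1.30 (adjusted p = 0.0651).

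**Figure D2:**
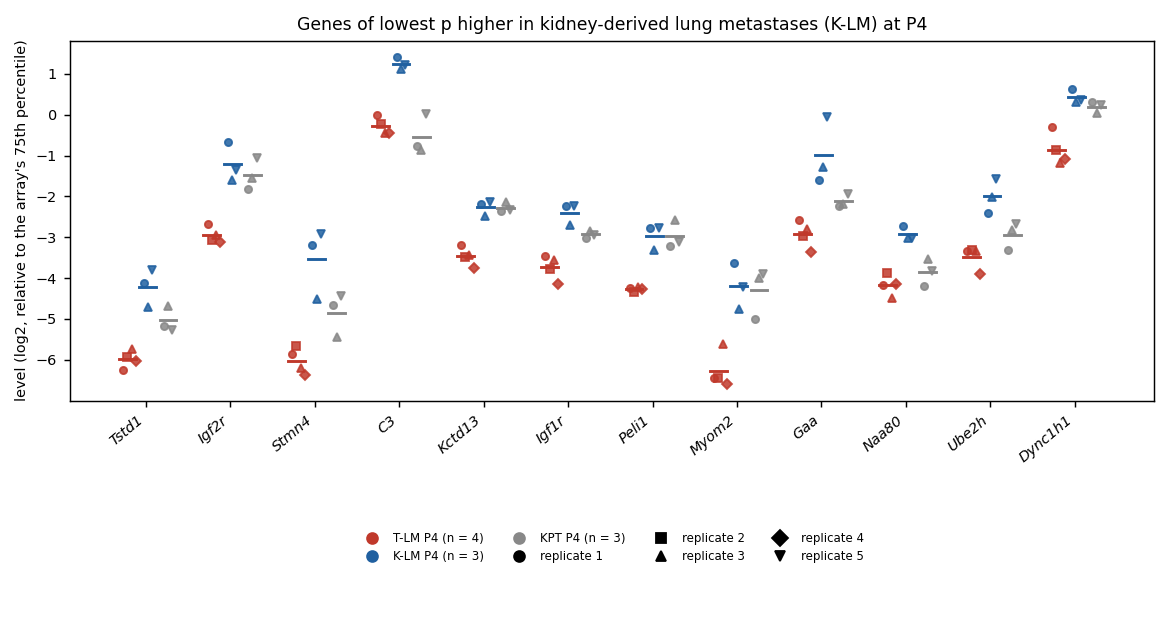
Level of the 12 genes of lowest p with a higher level in K-LM P4, on the vertical axis in log2 units relative to the 75th percentile of the array, with 1 point per sample (4 T-LM, 3 K-LM and 3 KPT) and a bar at each group mean. None of the 12 passed the test, although in each the 3 K-LM points lie above the 4 T-LM points. For Igf2r, Kctd13, Peli1, Myom2 and Dync1h1 the KPT points lie near K-LM.

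A measure of RNA balance moved with the route. The median level of long housekeeping mRNAs minus that of cytosolic ribosomal protein mRNAs was -7.90, -8.09, -7.81 and -8.59 in T-LM replicates 1 to 4. It was -7.30, -7.46 and -7.45 in K-LM and -7.59, -7.29 and -7.47 in KPT. The K-LM samples were all higher, with a T-LM minus K-LM difference of -0.69 log2 units (exact permutation test, 2-sided, p = 0.0286, the smallest possible). Of 22 long housekeeping mRNAs, such as Ubr4 (-1.31, adjusted p = 0.0703) and Ahnak (-0.94, adjusted p = 0.0924), 21 were lower in T-LM by the fit and 6 did not overlap between the groups (6.33% of all probes in that direction), with a median of -0.63. The 79 ribosomal protein mRNAs had a median of -0.03 and 0 called. The balance did not overlap between the routes, so a fit that holds it cannot tell the balance and the route apart. With the balance as a covariate 0 probes passed (682 at an unadjusted p under 0.05). Arg1 differed by 7.97 (adjusted p = 0.421) and Ear2 by 3.40 (adjusted p = 0.0704). Igf2r then differed by -1.34, Igf1r by -0.76, C3 by -1.39 and Dync1h1 by -1.10, all smaller than without it. Dync1h1 is itself one of the long housekeeping mRNAs of the measure, so its smaller difference follows in part from the covariate. Postn, Foxc2 and Saa1 moved the other way, to -2.98, -3.27 and -2.38, all larger than without the covariate. No slide held both P4 lung groups, so the slide and the route cannot be told apart on these arrays alone. With slide as a term in a fit over the 8 slides, Arg1 differed by 9.06 and Igf2r by -1.89.

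Interferon-stimulated genes tended to higher levels in K-LM, but no member passed. Interferons act through STAT and IRF factors on a short promoter element, the interferon-stimulated response element, and switch on antiviral genes such as the Ifit family, whose proteins bind foreign RNA. The promoters of Ifit1 and Ifit3, the members with the largest differences, are shown as 300 bases from RefSeq (GRCm38.p6), from 250 bases before the transcript start to 50 after it. Ifit1 lies at chr19:34640639-34640938 and Ifit3 at chr19:34583279-34583578, both on the plus strand. Capitals mark matches to the core letters of that element, GAAANNGAAA, searched on both strands and here found as TTTCNNTTTC.
Ifit1: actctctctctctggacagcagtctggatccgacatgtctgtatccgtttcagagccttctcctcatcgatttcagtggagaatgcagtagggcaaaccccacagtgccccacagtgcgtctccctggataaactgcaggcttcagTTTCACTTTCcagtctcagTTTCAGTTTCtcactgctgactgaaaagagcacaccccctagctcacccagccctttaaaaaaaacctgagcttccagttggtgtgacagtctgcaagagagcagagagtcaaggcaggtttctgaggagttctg
Ifit3: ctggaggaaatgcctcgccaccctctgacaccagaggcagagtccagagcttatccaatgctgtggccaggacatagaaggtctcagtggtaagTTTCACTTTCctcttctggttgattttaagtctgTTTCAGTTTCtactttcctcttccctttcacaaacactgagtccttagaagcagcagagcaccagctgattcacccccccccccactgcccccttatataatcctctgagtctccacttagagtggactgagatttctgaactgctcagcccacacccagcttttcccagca

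Each of these promoters held 2 matches. Of 32851 promoters of this length 1131 (3.44%) held at least 1, as did 17 of the 29 promoters of the interferon list that were in the table (58.6%). Ifit1 was at -8.65, -7.15, -5.59 and -6.65 in T-LM, well above background in 1 of 4 samples, and at -3.95, -4.36 and -3.54 in K-LM (-3.06 ± 0.93, adjusted p = 0.197). Ifit3 was at -6.92, -6.41, -5.52 and -6.56 in T-LM against -4.75, -3.55 and -2.0 in K-LM (-2.92 ± 0.61, adjusted p = 0.0924). Of 39 interferon-stimulated genes tested, 33 had a fitted level higher in K-LM, 6 did not overlap between the groups in that direction and 0 in the other (6.33% and 6.94% of all probes), and the median was -0.78. Of the 6, 1, Ifit1, had fewer than 2 T-LM arrays above background and so entered the test through K-LM. Stat2, which carries the interferon signal, differed by -1.09 (adjusted p = 0.141), and Oas3, a sensor of double-stranded RNA, by -1.49 (adjusted p = 0.18). The median was -0.25 without K-LM replicate 1 and -0.08 with the RNA balance as a covariate, which cannot be told apart from the route.

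Acute-phase genes, made in response to interleukin 6 and related cytokines, had a median of -0.40 over 26 tested. Of these 6 were higher in all K-LM samples and 1 in all T-LM samples (6.33% and 6.94% of all probes), and 0 passed the test. Of the 6, 1 had fewer than 2 T-LM arrays above background. Lcn2, an iron-scavenging lipocalin, was at 1.79, 1.80, 2.95 and 1.97 in T-LM, against 3.89, 3.98 and 3.68 in K-LM (-1.72, adjusted p = 0.0651). Saa3, a serum amyloid made outside the liver, was at 0.65, 0.73, 0.87 and 1.03 in T-LM, against 1.40, 2.57 and 3.69 in K-LM (-1.73, adjusted p = 0.234). Saa1 was at -1.38, -1.50, -1.35 and -1.11 in T-LM, against -1.19, 0.44 and 1.62 in K-LM, so K-LM replicate 1 lay within the T-LM range (-1.62 ± 0.57, adjusted p = 0.245). The protease inhibitor gene Serpina3f differed by -2.69 (adjusted p = 0.149). Saa2 and Cfb differed by -1.02 and -0.85 (adjusted p = 0.281 and 0.651). Serpina3n was below background on every T-LM array and at least 1.4-fold higher in K-LM (adjusted p = 0.482). Saa1 and Saa2, like the Serpina3 genes, have close relatives that their probes may also read. Lrg1, a leucine-rich glycoprotein of the same list, was the member that was higher in all T-LM samples (1.58, adjusted p = 0.206).

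Fibroblast marker levels depended on K-LM replicate 1, and the basement membrane list on K-LM replicate 5. The summed fibroblast marker level was -0.42 in that sample, 3.62 and 4.65 in K-LM replicates 3 and 5, and 1.78 to 3.92 in T-LM. Col1a1, fibrillar collagen, was at -3.62 in K-LM replicate 1, at 0.87 and 1.73 in the other K-LM samples and at -1.05 to 1.02 in T-LM. None of the 9 fibroblast markers tested separated the groups, and their median was 0.27. Of 27 interstitial collagens and their enzymes 1 was higher in all samples of each route (6.94% of all probes in T-LM, 6.33% in K-LM) and the median was -0.12. Col6a3, a microfibrillar collagen, differed by -1.37 (adjusted p = 0.271), Postn, a matrix protein of fibroblasts, by -1.59 (adjusted p = 0.565) and Mgp, matrix Gla protein, by -1.27 (adjusted p = 0.743), all 3 with overlapping groups. Sparcl1, a matrix glycoprotein, differed by 2.95 (adjusted p = 0.263). Among 20 basement membrane genes 4 were higher in all K-LM samples and 0 in all T-LM samples (6.33% and 6.94% of all probes), with a median of -0.86. Lamb3, a chain of an epithelial laminin, was at -5.13, -4.94, -3.53 and -5.55 in T-LM, against -2.26, -1.80 and -0.37 in K-LM (-3.31 ± 0.90, adjusted p = 0.155). Lamc1 and Lama5, chains of other laminins, differed by -1.10 (adjusted p = 0.101) and -1.18 (adjusted p = 0.113). Without K-LM replicate 5 the median of the basement membrane list was -0.04.

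Without K-LM replicate 1, 20 probes (0.0969%) were called higher in T-LM and 54 (0.262%) higher in K-LM, where 0 had been with it. Arg1, Ear2, Rgs1 and Thrsp were among the 20. Genes among the 54 were named after their values were seen. They included Hgf, the growth factor that activates Met (adjusted p = 0.00742), Igfbp7, a secreted binding protein (adjusted p = 0.00913), Prrx1, a mesenchymal transcription factor (adjusted p = 0.00798), the cell cycle inhibitor Cdkn1a (adjusted p = 0.00474) and the acute-phase gene Serpina3n (adjusted p = 0.00369). All 5 were below background on every T-LM array, and over all 3 K-LM samples the bounds were at least 1.51-fold for Hgf, 1.25-fold for Igfbp7, 1.57-fold for Prrx1, 1.15-fold for Cdkn1a and 1.4-fold for Serpina3n. The cause of the profile of that sample was not tested.

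No member of the cell cycle, hypoxia, sterol, stress, epithelial or mesenchymal lists passed the test, and their counts of genes that did not overlap stand beside 6.94% of all probes higher in T-LM and 6.33% higher in K-LM. Among 34 cell cycle genes the median was 0.16, with 4 higher in all T-LM samples and 1 in all K-LM samples. Cdc20, an activator of the anaphase complex, differed by 1.66 (adjusted p = 0.11) and Ccnb1, cyclin B1, by 1.18 (adjusted p = 0.109), while Ccnd1, cyclin D1, differed by -1.26 (adjusted p = 0.206). The tumour suppressor gene Cdkn2a differed by -1.82 (adjusted p = 0.42). Of 34 hypoxia and glycolysis genes 5 were higher in all K-LM samples and 0 in all T-LM samples, with a median of -0.22, among them the glucose transporters Slc2a1 (-0.79, adjusted p = 0.162) and Slc2a3 (-1.24, adjusted p = 0.154). Cholesterol synthesis and efflux (28 genes, median 0.16) and the stress response of the endoplasmic reticulum (29 genes, median 0.12) held Nsdhl, a sterol enzyme, at 0.84 (adjusted p = 0.513) and Creld2, a chaperone partner, at 0.99 (adjusted p = 0.123). The epithelial list (19 genes, median -0.09) had 4 genes on each side. Of the 4 higher in T-LM, 3 had fewer than 2 K-LM arrays above background. Of the 4 higher in K-LM, 1 had fewer than 2 T-LM arrays above background. Such genes entered the test through the group where they were higher. Krt7, a keratin of simple epithelium, was at -6.42, -4.63, -5.34 and -5.91 in T-LM and below background in K-LM (3.19 ± 0.72, adjusted p = 0.108, at least 2.09-fold), while Grhl2, a regulator of epithelial genes, differed by -1.90 (adjusted p = 0.13). Krt20 differed by -0.39 (adjusted p = 0.839). The mesenchymal list (27 genes, median -0.24) had 4 genes higher in all K-LM samples and 0 in all T-LM samples, and Foxc2, its member with the largest difference, was not well above background in T-LM and had overlapping groups (at least 1.21-fold higher in K-LM, adjusted p = 0.291).

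In the remaining lists 0 genes were called. The immediate-early list (26 genes, median -0.14) included Dusp4, a MAP kinase phosphatase, at -1.69 (adjusted p = 0.228). Wnt4, a signal of kidney development and the growth factor gene with the largest difference (list median -0.38), was at -4.89, -4.26, -7.64 and -6.55 in T-LM, well above background in 2 of 4 samples, and below background in K-LM (2.88 ± 0.67, adjusted p = 0.113, at least 1.74-fold). Among kidney lineage factors (13 genes, median 0.04) Wt1 was at -2.03, -1.30, -1.75 and -1.85 in T-LM, against -3.04, -2.08 and -3.86 in K-LM (1.26 ± 0.58, adjusted p = 0.358). Des, desmin, differed by 1.78 (adjusted p = 0.113) within a list of 28 actin-binding and contractile genes with a median of -0.01. Prostaglandin, retinoid and monoamine enzymes (22 genes) had a median of 0.11 and small proteoglycans and matrix glycoproteins (21 genes) one of -0.55. Of the study's T-LM and K-LM signatures, 20 genes (median 0.11) and 14 genes (median -0.22) were tested and the rest of each signature was not analysed here. In the T-LM signature 0 genes were higher in all T-LM samples and 1, Dyrk4, in all K-LM samples. For the K-LM signature these counts were 2, Lrg1 and Wt1, and 0 (6.94% and 6.33% of all probes). The signature genes were chosen by the study on these lines, so they are not independent evidence of a direction. Plau, a plasminogen activator, differed by 0.74 (adjusted p = 0.503), Il34, a macrophage growth factor, by 0.48 (adjusted p = 0.647) and Dyrk4, a kinase, by -1.36 (adjusted p = 0.155).

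Neutrophil, lymphocyte, endothelial and kidney tubule markers gave no call, with 3 of 6, 2 of 10, 4 of 10 and 4 of 11 tested. Cldn5, a tight junction protein of endothelium, was above background on 2 T-LM arrays and no K-LM array and was at least 1.09-fold higher (adjusted p = 0.0703). The defining endothelial markers Pecam1 and Cdh5 were not above background in enough samples to be tested. The summed neutrophil level was 1.21 to 1.48 in T-LM and 1.47 to 3.00 in K-LM. Erythroid and muscle markers had 0 members tested.

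**Figure D3:**
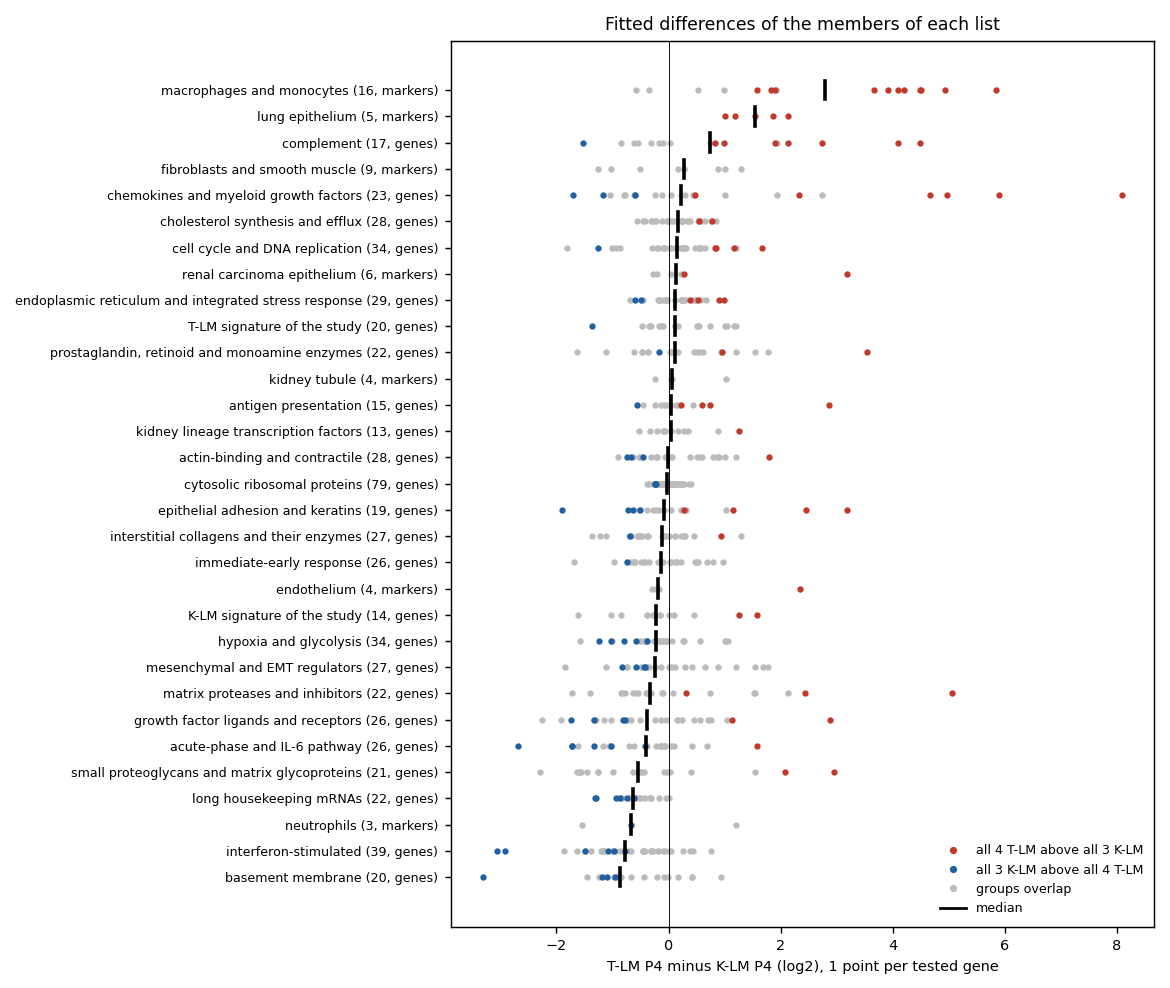
Fitted difference between T-LM P4 and K-LM P4 in log2 units on the horizontal axis for the tested members of each list (rows, with the number tested), with 1 point per gene, coloured where the 4 T-LM and 3 K-LM samples do not overlap, and a bar at the list median. Macrophage markers have the highest median at 2.79 and basement membrane genes the lowest at -0.86, and Arg1 and Ear2, the genes that passed, belong to none of these lists.

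The route difference at P4 was then set against that at the neighbouring passages. T-LM P3 (3 samples) and K-LM P3 (5), and T-LM P5 (6) and K-LM P5 (4), share no sample with P4. Each comparison of passages still holds the P4 difference itself. For genes named by their P4 values it is therefore no independent evidence. Within P3, 1 probe (0.00464%) was called higher in T-LM and 0 (0%) in K-LM, with 498 at an unadjusted p under 0.05. Within P5, 47 (0.218%) were higher in T-LM and 77 (0.357%) in K-LM. The difference between routes at P4 exceeded that at P3 for 41 of 21560 probes (0.19%) and lay below it for 1 (0.00464%), which made 42 (0.195%). Against P5 it was above for 118 (0.547%) and below for 63 (0.292%), which made 181 (0.84%). The split against P5 depended on the background correction, with 63 above and 100 below under normexp and 62 above and 67 below with dim signals raised to a floor. Of the 16 macrophage markers tested, 3 were called against P3 and 6 against P5. These markers were those kept on the 7 P4 lung arrays. Of the 11 that did not overlap at P4, 8 had fewer than 2 K-LM P4 arrays above background and were kept through T-LM P4. Both contrasts hold that same P4 difference, so these counts are a description alone.

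Fitted differences against K-LM samples below background are no measure of size here either. Arg1 was not well above background in any P0, T-LM P3, K-LM P3 or K-LM P5 sample, and in 1 of 6 T-LM P5 samples. Its route difference at P4 exceeded that at P3 by 7.55 ± 0.93 (limma, adjusted p = 0.000188) and that at P5 by 6.46 ± 0.88 (adjusted p = 0.00057). In T-LM P6, which was not tested here, Arg1 was again well above background in 4 of 4 samples, at -3.68 to -2.22. Ear2 exceeded its P3 difference by 3.55 ± 0.49 (adjusted p = 0.000573) and its P5 difference by 2.64 ± 0.46 (adjusted p = 0.00345). At P6 a single T-LM sample of 4 had Ear2 well above background. Among the named genes, Pf4 showed the largest change across passages. Its route difference was 8.10 at P4 against -0.26 at P3 and -2.43 at P5, and the excess of P4 was 8.36 ± 1.30 over P3 (adjusted p = 0.00228) and 10.5 ± 1.23 over P5 (adjusted p = 0.000108). In K-LM P5 it was well above background in 4 of 4 samples. C1qa exceeded its P3 and P5 differences by 4.62 (adjusted p = 0.00044) and 3.78 (adjusted p = 0.00155), and Mmp12 by 5.33 (adjusted p = 0.00941) and 6.14 (adjusted p = 0.00159). Aqp5 did so by 2.91 (adjusted p = 0.00561) and 2.43 (adjusted p = 0.00692).

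Igf2r and Dync1h1, with a higher fitted level in K-LM at P4, had fitted differences of the opposite sign at P5 that did not pass there. Igf2r had a route difference of 0.62 at P5 (adjusted p = 0.275) and 0.29 at P3, and its P4 difference lay below that at P5 (-2.36 ± 0.49, adjusted p = 0.00977). Dync1h1 had a route difference of 1.69 at P5 (adjusted p = 0.0113), and its P4 difference lay further below (-2.99 ± 0.55, adjusted p = 0.00455). The RNA balance moved alongside, with a mean of -8.67 ± 0.65 (SD, n = 6) in T-LM P5 and -9.13 ± 0.39 (SD, n = 4) in K-LM P5, the opposite order of means to P4. Dync1h1 is one of the long mRNAs of that measure, and the part of the balance in these genes was not tested. Ifit1 had a route difference of -2.83 at P5 and -3.06 at P4, and the difference of -0.23 between the passages did not pass (adjusted p = 0.901).

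**Figure D4:**
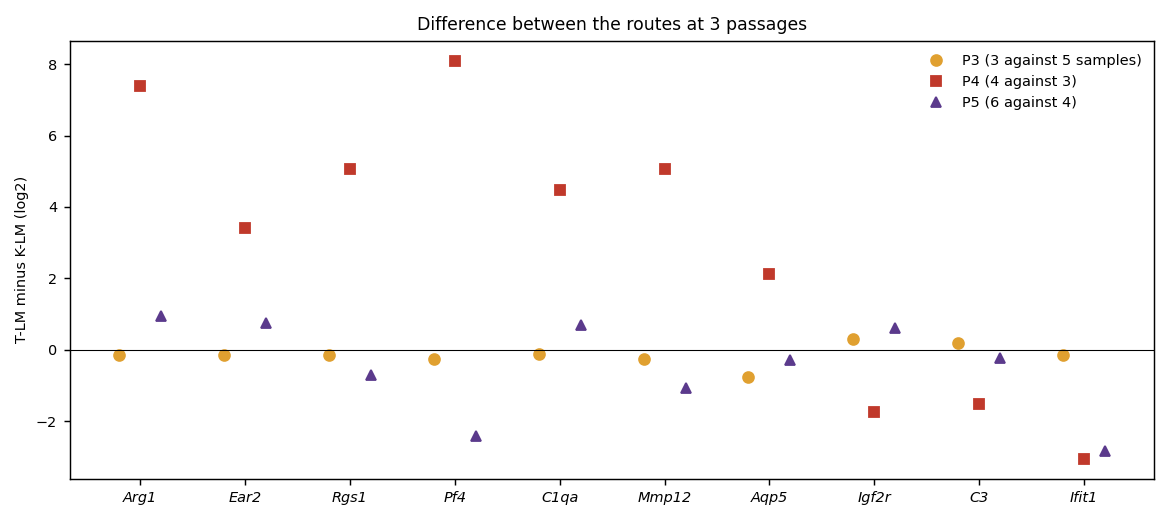
Fitted T-LM minus K-LM difference in log2 units on the vertical axis for 10 of the named genes at P3 (3 T-LM against 5 K-LM samples), P4 (4 against 3) and P5 (6 against 4), with 1 point per passage and no error bars. Arg1, Ear2, Rgs1, Pf4, C1qa, Mmp12 and Aqp5 lie above their P3 and P5 points at P4, Igf2r lies below 0 at P4 alone, and Ifit1 lies at similar depth at P4 and P5.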

How the data were processed

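Total RNA labelled with Cy5 was hybridised to Agilent mouse arrays. The deposited scanner files hold intensity per spot: the raw median, the background, and a processed value corrected by the scanner software. The log2 values deposited for the series were quantile-normalized raw medians by a check on every spot (largest difference 0.107). Of 62976 spots per array 3671 controls were left out and the rest averaged into 55681 probes. Names came from the RefSeq table of GRCm38.p6, which matched 28026 probes to 21154 symbols, each symbol read from its brightest probe. Levels were log2 processed intensity minus the 75th percentile over 11287 probes. Probes well above background on at least 2 of the 7 P4 lung arrays were tested.

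Samples were grouped by their titles. T-LM P4 and K-LM P4 were compared with limma 3.58.1 (R 4.3.3) in a fit of the 10 P4 arrays, 2-sided, and a probe was called at 0.01 or less after Benjamini-Hochberg adjustment over all probes tested, the study's threshold. Every adjusted p is from limma. Passages were compared by interaction terms over 25 arrays. A gene below background on every array of a group is given as at least N-fold (beside the fitted difference where sample values are printed), with that group raised on each array to the lowest signal well above background. Data were simulated with independent normal noise and 200 of 20719 probes changed. Of probes changed by 2 log2 units 58.2% were called, of those changed by 3 89.4%, and of those changed by 1 1.49%. The simulation held no sample that stood apart, as K-LM replicate 1 did, so these rates may not hold for the real arrays. The number of arrays limits the precision.

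Named genes were, in each direction, those called and then those of lowest p up to 12, the called members or else the member of largest change of each gene list, and 8 genes brought forward by the study or by earlier results (Saa1, Saa2, Cfb, Serpina3n, Mgp, Krt20, Plau and Il34). The samples compared, the lists and the rule were chosen with earlier results of these data known. Other genes were named after their values were seen. A gene that the rule names is not reported here. The alternatives tried changed the scaling, background correction, filter, floor on dim signals, arrays in the fit, slide and replicate terms, probe averaging and the samples kept. The normexp alternative used median signals, since no mean signal was in the files used.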

Additional observations from a re-analysis of the deposited data

Results flagged for a closer look

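Single samples stood apart within the 4 T-LM P4 samples for 4 of the named genes by Dixon's test of the gap to the nearest sample, which chance alone meets in about 1 in 20 groups. They were Myom2 at -5.63 in replicate 3, Ube2h at -3.91 in replicate 4, Sparcl1 at -1.82 in replicate 2 and Dyrk4 at -6.13 in replicate 4.

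The T-LM minus K-LM difference at P4 differed from that at P3 for 42 probes and from that at P5 for 181 in limma's interaction test. Among named genes it exceeded both the P3 and the P5 difference (log2, P3 first) for Arg1 by 7.55 and 6.46, for Ear2 by 3.55 and 2.64, for Rgs1 by 5.20 and 5.76 and for Pf4 by 8.36 and 10.5. The same held for Mmp12 by 5.33 and 6.14, for C1qa by 4.62 and 3.78, for 1700016C15Rik by 3.62 and 2.96 and for Krt7 by 3.34 and 2.82. It held for H2-Eb1 by 3.21 and 2.56, for Tnfaip8l2 by 2.87 and 2.97 and for Aqp5 by 2.91 and 2.43. Lpxn exceeded the P3 difference by 3.40, and Tbxas1 the P5 difference by 3.41. Below the P5 difference lay Igf2r at -2.36, Stmn4 at -2.19, Kctd13 at -1.81, Peli1 at -1.86, Naa80 at -2.07 and Dync1h1 at -2.99. Where K-LM P4 was below background, as for Arg1, Ear2 and C1qa, the size of the difference is not measured. The genes listed were named by their P4 values, which both comparisons of passages hold, so these excesses are no independent evidence.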

How the results depend on the processing

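The count of probes that differed was 2 and stayed at 2 or 3 with quantile normalization, normexp or a floor on dim signals. It was 6 with the percentile over all probes, 4 with the deposited log2 values, 6 with no filter, 0 with the filter on all arrays (2254 at an unadjusted p under 0.05) and 5 with probes averaged per symbol. It was 42 on the 7 lung arrays, 157 with T-LM and K-LM of P3 to P5, 291 on the 8 slides, 365 with slide as a random block and 348 with slide as a fixed term. The RNA balance as a covariate, which did not overlap between the routes, gave 0 (682 at an unadjusted p under 0.05). Leaving out 1 sample gave 1 to 74, with 74 without K-LM replicate 1, 5 without T-LM replicate 1 and 1 without T-LM replicate 2 or 3 or K-LM replicate 3 or 5. Replicates 1 and 3 exist in both routes, and their deviations correlated at 0.07 and -0.53. Pairs of unlike number ranged from -0.45 to 0.47, so these values cannot decide whether the numbers pair the samples. The replicate block gave 0 (1427 at an unadjusted p under 0.05).

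Ear2 passed under 18 of 21 alternatives and Arg1 under 14 of 21. The share of squared distance between routes was 22.1% (exact permutation p = 0.114) with no filter and 27.3% to 47.5% without 1 sample, where the exact permutation p was 0.0667 to 0.3 and the smaller designs cannot reach 0.05. The RNA balance differed by -0.79 to -0.53 without 1 sample. The 42 probes that differed from P3 became 18 with normexp, 27 with deposited values, 13 with the floor, 1 with the filter on all arrays and 19 to 50 without 1 sample. The 181 against P5 became 284 with deposited values, 103 with no filter, 62 with the filter on all arrays and 43 to 299 without 1 sample. Both counts fell by over 1.5 times without T-LM replicate 2, 3 or 4 or K-LM replicate 5, the first also without K-LM replicate 3 and the second without T-LM replicate 1, and the second was 299 without K-LM replicate 1. Of 1172 values of named genes under alternatives, 3 changed direction, none of them called: Cfb at 0.026 without K-LM replicate 3 (-1.79 to 0.026 without 1 sample), and Krt20 at 0.36 with the replicate block and 0.72 without K-LM replicate 5 (-1.13 to 0.72). The cause was not tested.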
